A study of Mus musculus with 9 samples.

Results

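Genes best known from the projection neurons of the striatum were followed through RNA sequencing libraries made from mouse hippocampus. The 9 genes are Six3, Drd1, Drd2, Adora2a, Ppp1r1b, Rgs9, Pde10a, Penk and Tac1, and they were named as a list of gene symbols and looked up among the 47643 genes of the deposited count matrix. All 9 were found. The genes were chosen by their raw counts in these same 9 libraries, which had been seen when the list was drawn up, so their levels and fold changes are given as a description, without a test. The study sequenced the hippocampus of lupus-prone mice and their controls, all at 6 weeks of age. The group named MRL/mpj (3 libraries, untreated wild-type controls) is the MRL/MpJ strain, and the group named MRL/lpr (3 libraries, untreated) is the same strain with the lpr mutation of Fas, a gene that triggers the death of surplus lymphocytes. The third group, MRL/lpr+MSC (3 libraries), has the lpr genotype and was given mesenchymal stem cells. The source, dose and timing of these cells are not given in the sources used here. The lpr mutation is carried in every cell of these mice, brain and immune system alike. The labels name C57BL/6 as the strain of all 9 libraries, where the study's methods name MRL/MpJ and MRL/MpJ-Faslpr.

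Each library stands for 1 mouse, and total counts ran from 19475804 to 26912031 per library. Levels are compared as CPM (counts scaled to each library's size after TMM, a normalisation by trimmed means). A count of 0 allows up to 3 counts, counting error only, which is 0.111 to 0.154 CPM before the TMM scaling. Fas itself was measured at 1.63 to 2.0 CPM in MRL/mpj, 1.34 to 2.27 CPM in MRL/lpr and 0.986 to 1.81 CPM in MRL/lpr+MSC libraries, so its total count does not check the labels. One label stands in doubt. In the study's supplementary expression table, the columns headed MRL/lpr are constant multiples of the libraries labelled MRL/lpr+MSC, for 100% of the genes compared, whereas its MRL/mpj columns match the libraries labelled MRL/mpj. Groups are named here as the sample labels name them, and results are given for both lpr groups so that each can be read under either name. Hippocampal identity was visible in all 9 libraries: the summed level of 19 genes of hippocampal principal neurons was 2076 to 2423 CPM in MRL/mpj, 1487 to 2144 CPM in MRL/lpr and 1636 to 1943 CPM in MRL/lpr+MSC libraries.

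The striatum arises from the subpallium, the ventral part of the embryonic forebrain, whereas the hippocampus arises from the pallium. Most striatal neurons are inhibitory projection neurons that receive dopamine. These neurons come in a pair of classes. Neurons of the direct pathway carry the dopamine receptor Drd1 and make the peptide substance P from Tac1, while those of the indirect pathway carry the dopamine receptor Drd2 and the adenosine receptor Adora2a and make enkephalin from Penk. Both classes hold the phosphoprotein DARPP-32 (Ppp1r1b), the cyclic nucleotide phosphodiesterase Pde10a and the G-protein brake Rgs9, which relay and shape the dopamine signal. Six3 is a homeodomain transcription factor of the early forebrain and is required for neurons of the indirect pathway. Several of them, such as Drd1, Ppp1r1b, Pde10a, Penk and Tac1, are also transcribed in subsets of hippocampal neurons.

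Start-site sequences are shown for Six3, Drd2 and Tac1, 3 genes that were high in replicate 3 of both lpr groups. They set side by side the letters around the starts of these genes. Tac1, unlike Six3 and Drd2, was above the controls in replicate 3 only. The windows come from RefSeq (GRCm38.p6), hold 250 bases before and 50 bases after the start, and were listed for 6 of the 9 genes. The Six3 window is chr17:85620584-85620883 on the plus strand, that of Drd2 is chr9:49340153-49340452 on the plus strand, and that of Tac1 is chr6:7554811-7555110 on the plus strand. Capitals mark matches on either strand to the cyclic AMP response element TGACGTCA, its core TGACG (which lies inside the full element), the homeodomain motif TAATTA, the TATA box TATAAA and the GC box GGGCGG.
Six3: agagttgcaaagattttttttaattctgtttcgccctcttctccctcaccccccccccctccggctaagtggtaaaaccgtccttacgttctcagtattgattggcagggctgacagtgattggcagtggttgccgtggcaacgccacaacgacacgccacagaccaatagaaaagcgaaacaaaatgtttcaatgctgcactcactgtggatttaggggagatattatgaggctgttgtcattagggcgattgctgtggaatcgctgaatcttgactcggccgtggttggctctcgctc
Drd2: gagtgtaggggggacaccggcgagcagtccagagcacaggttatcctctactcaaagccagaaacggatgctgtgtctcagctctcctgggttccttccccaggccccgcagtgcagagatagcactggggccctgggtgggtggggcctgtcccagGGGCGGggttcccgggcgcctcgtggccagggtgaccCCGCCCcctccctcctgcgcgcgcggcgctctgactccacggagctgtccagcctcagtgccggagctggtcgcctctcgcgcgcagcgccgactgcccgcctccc
Tac1: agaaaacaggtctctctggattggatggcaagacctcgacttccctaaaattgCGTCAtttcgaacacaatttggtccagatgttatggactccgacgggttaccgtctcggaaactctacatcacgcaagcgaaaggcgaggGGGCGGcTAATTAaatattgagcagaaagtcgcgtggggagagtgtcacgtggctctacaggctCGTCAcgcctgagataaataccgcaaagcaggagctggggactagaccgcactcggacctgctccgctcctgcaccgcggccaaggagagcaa

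The Six3 window held none of these letters, the Drd2 window held 2 GC boxes, and the Tac1 window held 1 GC box, 1 TAATTA and 2 TGACG cores. Over all 32851 windows in the table, 35.7% held a GC box, 20.8% the TGACG core, 13.6% the TATA box, 5.29% TAATTA and 1.79% the full TGACGTCA. The 3 windows had 14, 23 and 22 CG dinucleotides in the same order, against a median of 7 over all windows. No motif was thus shared by all 3 of the windows, and a match is a description of letters only.

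Six3 (chr17:85613608-85629302, plus strand, GRCm38) stood apart from the other 8 genes in the size of its range. It was counted 12, 13 and 13 times in the MRL/mpj libraries (replicates 1 to 3), 352, 136 and 603 times in the MRL/lpr libraries and 5, 173 and 596 times in the MRL/lpr+MSC libraries. All 3 MRL/lpr libraries were above all 3 MRL/mpj libraries, whereas MRL/lpr+MSC replicate 1 was below every control. In CPM, Six3 was 0.622 ± 0.0770 in MRL/mpj, 14.6 ± 10.01 in MRL/lpr and 11.6 ± 13.4 in MRL/lpr+MSC mice (mean ± SD, n = 3 each). The fitted log2 fold change was 4.27 (SE 1.11) for MRL/lpr and 2.76 (SE 2.31) for MRL/lpr+MSC, each against MRL/mpj, and the same 3 control libraries served both. The second value was 4.54 without MRL/lpr+MSC replicate 1 and 1.33 without MRL/lpr+MSC replicate 3. In these bulk libraries, more cells that make a transcript and more transcript per cell cannot be told apart, here and for every gene below.

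An antisense transcript at the same locus moved with Six3. Six3os1 (chr17:85600651-85618398, minus strand) shares 4791 bases with the annotated Six3 gene, and the sources used here do not state whether reads were counted by strand, so reads in the shared stretch cannot be assigned to one gene. Its counts were 8, 22 and 6 in MRL/mpj, 300, 126 and 437 in MRL/lpr and 6, 143 and 390 in MRL/lpr+MSC libraries, with the high and low libraries in the same places as for Six3. Six3os1 was not one of the listed genes and was looked at because it overlaps one.

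Among the receptors, Drd2 (chr9:49340627-49408177) had the same profile at a smaller range. Its levels were 0.899, 0.903 and 1.47 CPM in MRL/mpj, 5.35, 2.5 and 15.8 CPM in MRL/lpr and 1.35, 5.06 and 11.5 CPM in MRL/lpr+MSC libraries. Again the MRL/lpr libraries did not overlap the controls and MRL/lpr+MSC replicate 1 fell among them. The fitted log2 fold change against MRL/mpj was 2.48 (SE 0.95) for MRL/lpr and 2.08 (SE 0.95) for MRL/lpr+MSC mice. As single libraries were left out the first ran from 1.83 (without MRL/lpr replicate 3) to 3.05 (without MRL/lpr replicate 2), and the second from 1.33 (without MRL/lpr+MSC replicate 3) to 2.86 (without MRL/lpr+MSC replicate 1).

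Drd1 (chr13:54051183-54055705), the receptor of the direct pathway, differed far less between libraries. It was measured at 4.80, 5.25 and 3.65 CPM in MRL/mpj, 5.46, 5.86 and 7.15 CPM in MRL/lpr and 3.48, 5.90 and 10.7 CPM in MRL/lpr+MSC libraries. The lowest MRL/lpr library lay just above the highest control, and the MRL/lpr+MSC libraries spanned the whole control range. Drd1 had a log2 fold change of 0.42 (SE 0.19) in MRL/lpr and of 0.44 (SE 0.41) in MRL/lpr+MSC mice. The second was -0.0026 without MRL/lpr+MSC replicate 3 and 0.81 without MRL/lpr+MSC replicate 1.

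Adora2a (chr10:75316877-75334784) was far above the controls in 1 library only, although all 3 MRL/lpr libraries were above every control. Its levels were 2.20, 3.01 and 3.00 CPM in MRL/mpj, 3.67, 4.14 and 3.13 CPM in MRL/lpr and 2.85, 2.42 and 8.36 CPM in MRL/lpr+MSC libraries. MRL/lpr+MSC replicate 3 was 2.02 times the next highest library, and the log2 fold change against MRL/mpj went from 0.54 (SE 0.50) to -0.06 without it and to 0.89 without MRL/lpr+MSC replicate 1. For MRL/lpr mice, Adora2a had a log2 fold change of 0.42 (SE 0.21). Adora2a shares its cells with Drd2 in the striatum, yet in MRL/lpr replicate 3, where Drd2 was highest, Adora2a was the lowest of its group.

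Of the proteins that relay the dopamine signal, Rgs9 (chr11:109225355-109298129), which speeds the shut-off of G proteins, had the smallest spread within MRL/lpr mice. Its levels were 10.04, 5.63 and 7.30 CPM in MRL/mpj, 13.8, 15.1 and 14.2 CPM in MRL/lpr and 10.4, 13.7 and 23.8 CPM in MRL/lpr+MSC libraries. Every library of both lpr groups was above every control, although MRL/lpr+MSC replicate 1 exceeded the highest control by little. The log2 fold change was 0.96 (SE 0.19) for MRL/lpr and 1.05 (SE 0.37) for MRL/lpr+MSC mice.

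Ppp1r1b (chr11:98348404-98357796), whose product inhibits protein phosphatase-1 once dopamine has raised cyclic AMP, followed another order of libraries. It was at 46.8, 56.2 and 60.6 CPM in MRL/mpj, 66.4, 106.9 and 49.4 CPM in MRL/lpr and 48.9, 89.3 and 79.1 CPM in MRL/lpr+MSC libraries. Replicate 2 was the highest in both lpr groups, and MRL/lpr replicate 3, the highest library for Drd2, was inside the control range. The log2 fold change was 0.38 in both comparisons with MRL/mpj (SE 0.28 for MRL/lpr, SE 0.23 for MRL/lpr+MSC). The MRL/lpr value was 0.10 without MRL/lpr replicate 2 and 0.64 without MRL/lpr replicate 3, and the MRL/lpr+MSC value was 0.20 without MRL/lpr+MSC replicate 2 and 0.64 without MRL/lpr+MSC replicate 1.

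Pde10a (chr17:8525372-8986648), the phosphodiesterase that marks both classes of striatal projection neuron, was not higher in either lpr group. Its levels were 89.8, 103.9 and 95.9 CPM in MRL/mpj, 72.2, 94.0 and 63.6 CPM in MRL/lpr and 96.3, 95.6 and 95.8 CPM in MRL/lpr+MSC libraries. MRL/lpr replicate 3 had the lowest level of the 9 libraries. The log2 fold change was -0.35 (SE 0.14) for MRL/lpr and -0.0023 (SE 0.072) for MRL/lpr+MSC mice.

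The peptide precursors were high in 1 library of each lpr group. Penk (chr4:4133531-4138819), the precursor of enkephalin, was at 17.9, 18.8 and 17.1 CPM in MRL/mpj, 13.4, 18.5 and 50.5 CPM in MRL/lpr and 7.89, 14.0 and 52.0 CPM in MRL/lpr+MSC libraries. Replicate 3 of both lpr groups was far above the controls, while the other 4 lpr libraries lay inside or below the control range. The log2 fold change of Penk was 0.34 (SE 0.50) in MRL/lpr mice, -0.20 without MRL/lpr replicate 3 and 0.78 without MRL/lpr replicate 1. It was 0.05 (SE 0.65) in MRL/lpr+MSC mice, -0.76 without MRL/lpr+MSC replicate 3 and 0.61 without MRL/lpr+MSC replicate 1.

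Tac1 (chr6:7554879-7565834), the precursor of substance P, had a weaker form of the same pattern. It was at 3.80, 4.65 and 5.94 CPM in MRL/mpj, 3.99, 4.10 and 8.92 CPM in MRL/lpr and 3.79, 5.06 and 11.4 CPM in MRL/lpr+MSC libraries. Only replicate 3 of each lpr group was above the controls. The log2 fold change was 0.15 (SE 0.36) for MRL/lpr and 0.40 (SE 0.43) for MRL/lpr+MSC mice, and both were negative without replicate 3 of the lpr group, at -0.21 and -0.10. Without replicate 1 of the lpr group they were 0.38 and 0.72.

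**Figure D1:**
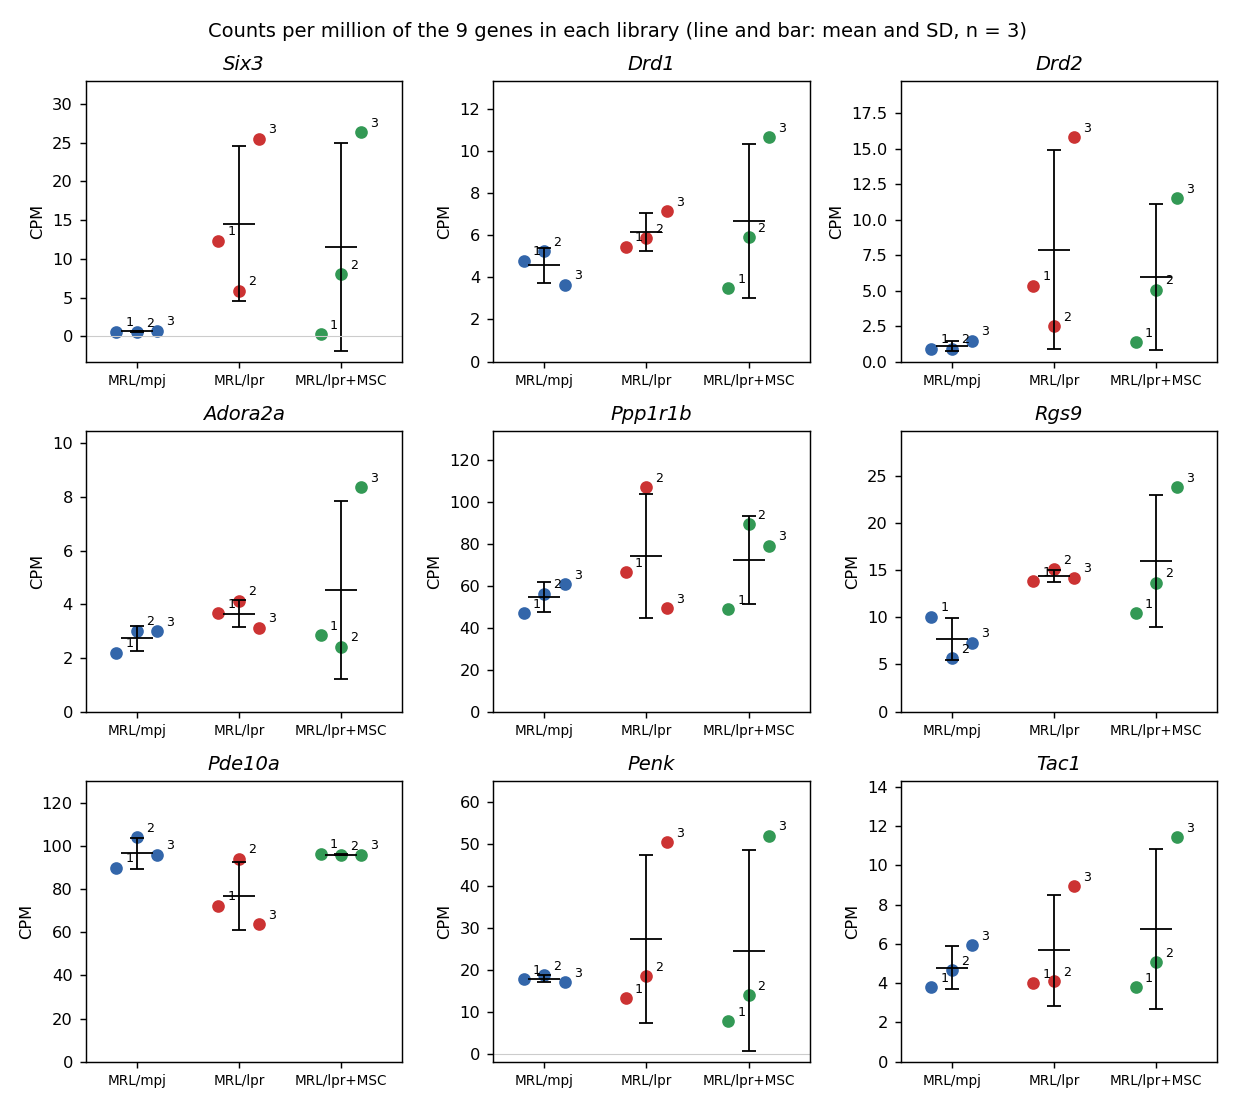
Level of each of the 9 genes in CPM (vertical axis) in the 9 libraries, by group, with the replicate number beside each point and the mean and SD (n = 3) as line and bar. Six3 lay between 0.559 and 0.708 in MRL/mpj libraries and reached 26.4 in MRL/lpr+MSC replicate 3, while Pde10a stayed between 63.6 and 103.9 throughout.

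Per gene length, the 9 genes differed widely in the control hippocampus. In the authors' FPKM, the MRL/mpj means were 18.6 ± 2.5 for Ppp1r1b, 11.0 ± 0.468 for Penk, 7.67 ± 0.553 for Pde10a, 1.41 ± 0.327 for Tac1, 1.30 ± 0.226 for Drd1, 1.20 ± 0.347 for Rgs9, 1.08 ± 0.186 for Adora2a, 0.706 ± 0.218 for Drd2 and 0.114 ± 0.0150 for Six3 (mean ± SD, n = 3). Neighbours from Tac1 to Adora2a in this order lay within 1 SD of each other. In MRL/lpr mice Drd2 moved above Drd1, with 5.07 ± 4.53 against 1.73 ± 0.256 FPKM, and Six3 at 2.66 ± 1.84 FPKM moved above Tac1 at 1.66 ± 0.833 FPKM, with SDs wide enough for the intervals to overlap. In MRL/lpr replicate 3, Drd2 was at 10.2 FPKM, above Pde10a at 5.04 FPKM.

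**Figure D2:**
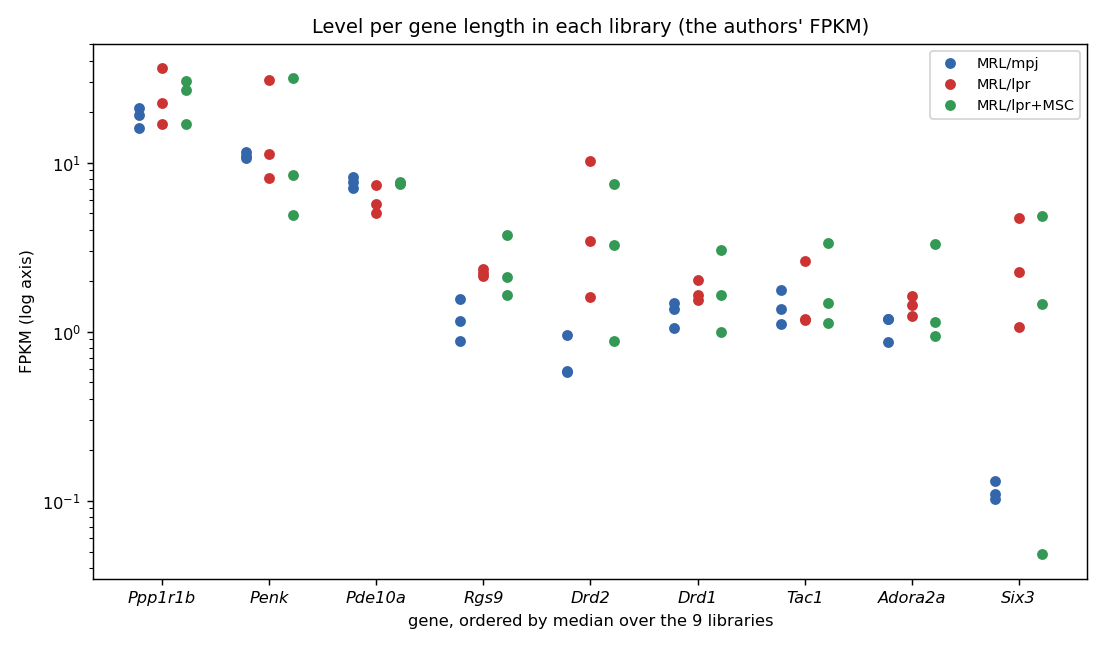
FPKM of each gene on a log axis, ordered by the median over the 9 libraries, with 1 point per library and colours for the groups. Ppp1r1b, Penk and Pde10a formed the upper part, from 4.86 to 36.1 FPKM, and Six3 ranged from 0.0480 to 4.84 FPKM.

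A gene was called differentially expressed at an adjusted p under 0.05 by limma voom together with a difference of 1.5-fold or more. Between MRL/lpr and MRL/mpj mice 1 of 9 was called (Rgs9, higher), where 5.79% of the 16697 genes tested were, 3.41% higher and 2.38% lower. Between MRL/lpr+MSC and MRL/mpj mice 0 of 9 were, where 3.43% of 16196 genes were, 1.93% higher and 1.5% lower. Between MRL/lpr+MSC and MRL/lpr mice 0 of 9 were, where 0% of 16758 genes were. At an unadjusted p under 0.05 the counts were 4, 1 and 1 of 9 in the same order, beside 30.4%, 22.9% and 3.86% of all genes, the last being 647 genes. These shares over all genes also apply to the counts of the lists below. Because the list of 9 was chosen with these comparisons known, its counts are a description. The MRL/lpr count was 0 when all 9 libraries were fitted together (Rgs9 at an adjusted p of 0.0991 by limma voom). It also changed with single libraries: it was 3 without MRL/lpr replicate 2 (Six3, Drd2 and Rgs9), 2 without MRL/lpr replicate 3 (Six3 and Rgs9), and 0 when MRL/lpr replicate 1 or replicate 2 or 3 of MRL/mpj was left out. The MRL/lpr+MSC count against MRL/mpj was 3 without MRL/lpr+MSC replicate 1 (Drd2, Ppp1r1b and Rgs9).

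Non-overlap between groups was more frequent than these calls. All 3 MRL/lpr libraries were above all 3 MRL/mpj libraries for 5 of the 9 genes (Six3, Drd1, Drd2, Adora2a and Rgs9), beside 19.7% of all genes tested. For MRL/lpr+MSC against MRL/mpj this held for 1 of 9 (Rgs9), beside 15.6%. For MRL/lpr+MSC against MRL/lpr it held for 1 of 9 (Pde10a), beside 4.46%. None of the 9 was lower without overlap in any of the comparisons, beside 18.2%, 14.1% and 5.57% of all genes.

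The median log2 fold change of the 9 genes was 0.42 for MRL/lpr and 0.44 for MRL/lpr+MSC against MRL/mpj, beside medians over all genes of 0.022 and 0.0091. Positive values were found for 8 of 9 genes in each of these comparisons, which share their controls, and 52.8% and 51.7% of all genes were positive. Without MRL/lpr replicate 3 the MRL/lpr median was 0.52 with 6 of 9 positive, and without MRL/lpr+MSC replicate 3 the MRL/lpr+MSC median was -0.0026 with 4 of 9 positive. Between MRL/lpr+MSC and MRL/lpr mice the median was 0.025, beside -0.0043 over all genes, with 5 of 9 positive. That value was -0.40 without MRL/lpr+MSC replicate 3, and -0.35 when replicate 3 of both groups was left out.

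**Figure D3:**
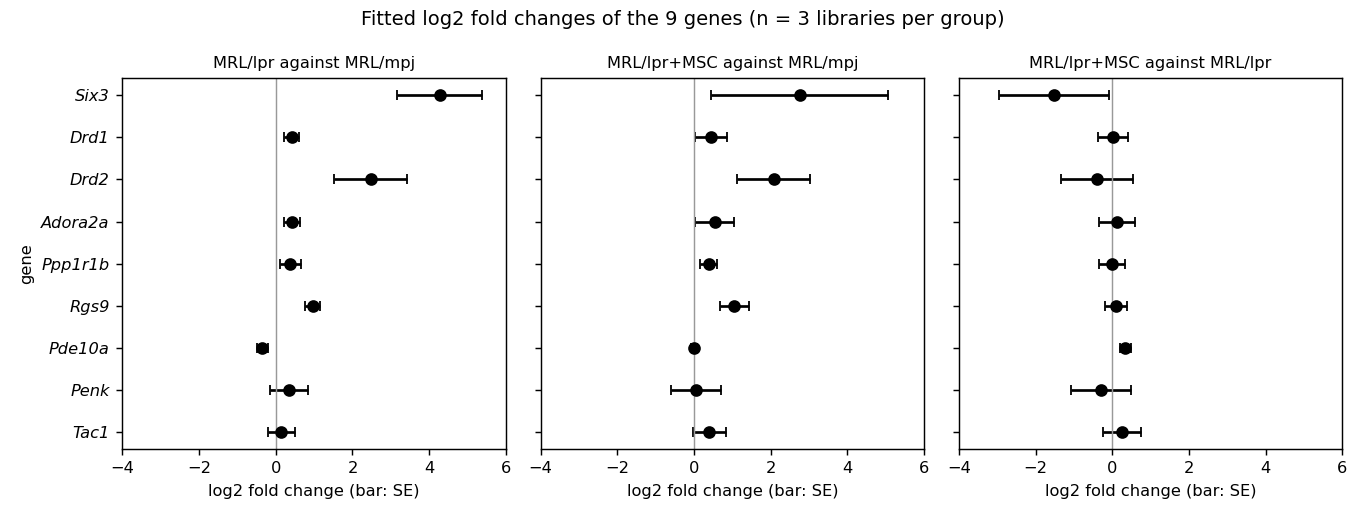
Fitted log2 fold change of each gene (points, bars are the SE, 3 libraries per group) in the 3 comparisons. In MRL/lpr compared with MRL/mpj mice Six3 (4.27) and Drd2 (2.48) lay far to the right of the other genes, whose values ran from -0.35 to 0.96, and in MRL/lpr+MSC against MRL/lpr mice Six3 had an SE of 1.43.

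Across libraries the 9 genes did not behave as 1 block. The highest library was MRL/lpr+MSC replicate 3 for 6 genes, and MRL/lpr replicate 3 (Drd2), MRL/lpr replicate 2 (Ppp1r1b) and MRL/mpj replicate 2 (Pde10a) for 1 gene each. The highest level was thus in MRL/lpr replicate 3 or MRL/lpr+MSC replicate 3 for 7 of 9 genes, beside 20.8% of the 17063 genes tested in any comparison. MRL/lpr+MSC replicate 1 was the lowest library for 4 genes. Over the 9 libraries, Six3 and Drd2 had a Pearson r of 0.96 in log2 CPM, and Penk and Tac1 one of 0.88. By contrast Pde10a had an r of -0.58 with Six3 and of -0.64 with Drd2, and Ppp1r1b one of 0.06 with Penk. Of the 36 pairs, 19 had an r above 0.5 and 6 one below 0, with a median of 0.56. All of these values come from the same 9 libraries and are a description.

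The average over the 9 genes, each first set to mean 0 and SD 1 over the libraries, gives 1 score per library. It was -0.65, -0.45 and -0.43 in MRL/mpj, -0.08, 0.30 and 0.42 in MRL/lpr and -0.75, 0.17 and 1.48 in MRL/lpr+MSC libraries. The MRL/lpr+MSC group thus held both the lowest and the highest library of the series.

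**Figure D4:**
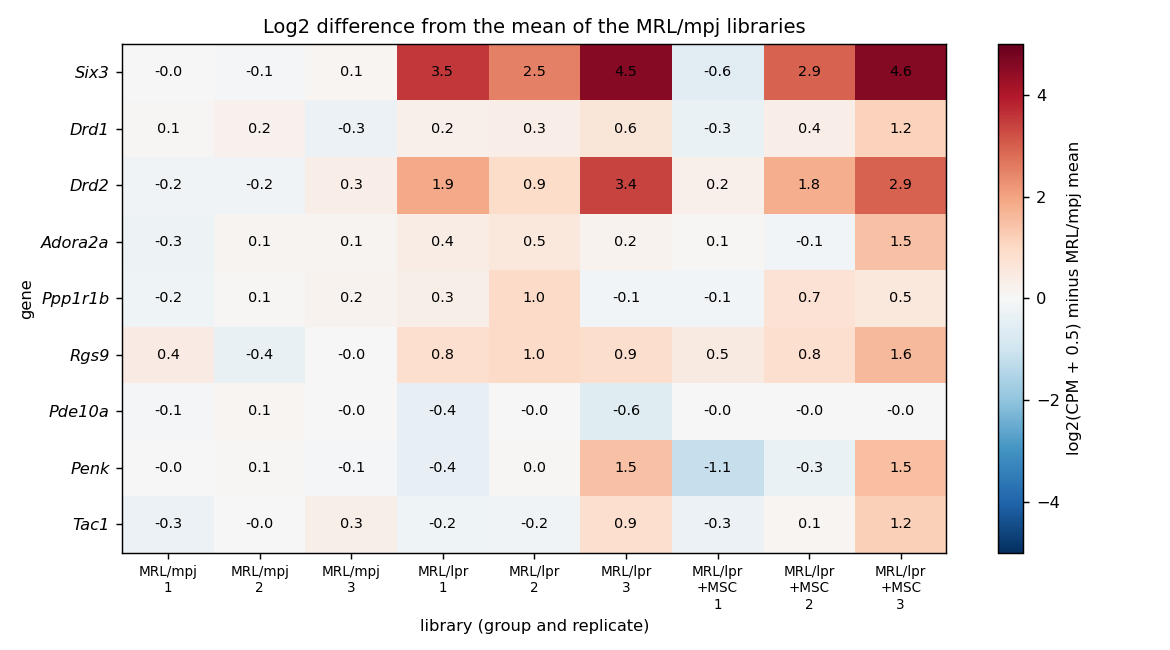
Difference of log2(CPM + 0.5) of each gene (vertical axis) in each library (horizontal axis) from the mean of the MRL/mpj libraries, with the value in each cell. The column of MRL/lpr+MSC replicate 1 runs from -1.14 (Penk) to 0.46 (Rgs9), with Six3 at -0.56. MRL/lpr replicate 3 and MRL/lpr+MSC replicate 3 are high for Six3, Drd2, Penk and Tac1 and not for Pde10a.

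Other genes of striatal projection neurons, from a list of 42 symbols that does not hold the 9, of which 40 were found, gave a mixed picture. In MRL/lpr compared with MRL/mpj mice, 36 were tested, 2 rose and 2 fell by the rule above, and the median log2 fold change was 0.37. Rxrg, a retinoid receptor, rose with a log2 fold change of 2.17 (SE 0.52, adjusted p = 0.048, limma voom), and Actn2, a postsynaptic actinin, with one of 0.65 (SE 0.15, adjusted p = 0.048). Scn4b, a sodium channel subunit abundant in striatal neurons, fell with a log2 fold change of -0.98 (SE 0.14, adjusted p = 0.012), and the transcription factor Foxp1 with one of -0.62 (SE 0.07, adjusted p = 0.0069). The count of 4 genes ran from 0 to 13 as single libraries were left out: it was 2, 1 and 0 without control replicates 1, 2 and 3, and 0 and 13 without replicates 1 and 2 of MRL/lpr.

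In MRL/lpr+MSC against MRL/mpj mice, 35 of these genes were tested, 2 rose and 0 fell, with a median log2 fold change of 0.20 in all and 8 genes at an unadjusted p under 0.05. The transcription factor Meis2 rose with a log2 fold change of 1.56 (SE 0.16, adjusted p = 0.0039, limma voom) and Actn2 with one of 0.66 (SE 0.14, adjusted p = 0.045). The count was 6 without MRL/lpr+MSC replicate 1 and 1 without any 1 of the MRL/mpj libraries. Between the lpr groups 37 were tested and 0 passed by limma voom, with 2 at an unadjusted p under 0.05 and a median of -0.0018. The most abundant genes of the list were the G-protein subunits Gng7 and Gnal and the transcription factor Bcl11b. Gng7 was at 221 to 285 CPM in MRL/mpj, 188 to 240.1 CPM in MRL/lpr and 171 to 234 CPM in MRL/lpr+MSC libraries, and Bcl11b at 249.9 to 314, 165 to 254 and 144 to 218 CPM in the same order. In the libraries with the highest Six3, both were inside or below the control range. Gnal, which couples Drd1 to cyclic AMP, was at 131 to 151 CPM in controls and at 261 CPM in MRL/lpr replicate 3 and 245 CPM in MRL/lpr+MSC replicate 3.

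Isl1 and Dlk1 of this list had far larger ranges, and they are named here after their values were seen. Isl1, a transcription factor of direct-pathway and cholinergic neurons, had at most 1 count in every MRL/mpj library, and 181, 24 and 433 counts in MRL/lpr and 0, 92 and 247 counts in MRL/lpr+MSC libraries. Even if 3 counts are allowed in each control library, the mean level of Isl1 was far higher in both lpr groups, although MRL/lpr+MSC replicate 1 had no count. Dlk1 was at 33.3, 16.3 and 102 CPM in MRL/lpr and 2.75, 21.3 and 88.6 CPM in MRL/lpr+MSC libraries, against 0.926 to 1.60 CPM in controls. As for Six3, MRL/lpr+MSC replicate 1 had the lowest level of its group for both genes.

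Effectors of the dopamine signal went both ways. Of 27 genes found, 6 are among the 9 and 6 are on the list of other striatal genes. Of the 25 tested, 1 was higher and 1 lower by the rule in MRL/lpr and 0 higher and 1 lower in MRL/lpr+MSC mice against MRL/mpj, with medians of -0.026 and 0.0040. In MRL/lpr mice 15 of the 25 had an unadjusted p under 0.05, beside 30.4% of all genes. Without overlap 8 were higher and 8 lower, beside 19.7% and 18.2% of all genes. Drd1, Drd2, Adora2a and Rgs9, chosen from these data, are among those higher without overlap. In MRL/lpr+MSC mice 6 of 25 had such a p, beside 22.9% of all genes. The gene higher by the rule is Rgs9. The dopamine receptor Drd5 fell in both comparisons, with log2 fold changes of -0.59 (SE 0.14, adjusted p = 0.048, limma voom) and -0.76 (SE 0.17, adjusted p = 0.0495). The most abundant of them were the phosphatase subunit Ppp1cb at 312 to 430.0 CPM, the kinase activator Cdk5r1 at 302 to 349 CPM and Rgs7bp, which anchors Rgs9-type proteins at the membrane, at 235 to 394 CPM over the 9 libraries. Of 17 peptide and peptide receptor genes, 0 rose and 2 fell in MRL/lpr mice and 1 rose and 0 fell in MRL/lpr+MSC mice. Vip fell with a log2 fold change of -1.19 (SE 0.13, adjusted p = 0.0062) and Npy with one of -0.72 (SE 0.13, adjusted p = 0.025). The neurokinin receptor Tacr3 rose in MRL/lpr+MSC mice with a log2 fold change of 3.70 (SE 0.62, adjusted p = 0.024). Cck, the most abundant, was at 260.2 to 345 CPM in controls and at 119.9 CPM in MRL/lpr replicate 3, Sst was at 39.1 to 122 CPM over the 9 libraries, and the opioid precursor Pdyn at 16.7 to 52.4 CPM.

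Some markers of neighbouring regions were high in the libraries in which Six3, Drd2, Penk and Tac1 were high, and their part in the levels above was not tested. Genes of the lateral septum and other subpallial territories (16 genes) had a summed level of 607 to 630 CPM in MRL/mpj, 536 to 2189 CPM in MRL/lpr and 573 to 1713 CPM in MRL/lpr+MSC libraries, and all 16 were highest in MRL/lpr replicate 3 or MRL/lpr+MSC replicate 3. The median difference of this list from the controls on the log2 scale was 2.42 and 1.79 in these libraries but -0.17 in MRL/lpr replicate 2, where that of the 9 genes was 0.53. The transcription factor Zic1 was at 30.6, 21.3 and 14.9 CPM in MRL/mpj, 206, 62.4 and 349 CPM in MRL/lpr and 11.1, 155 and 253 CPM in MRL/lpr+MSC libraries. As for Six3, MRL/lpr+MSC replicate 1 was below every control. Not every gene of this list is particular to these regions. Gad1, Gad2, Slc32a1 and Lhx6 are also on the list of hippocampal interneuron genes below, and they count in the summed level. Of the enzymes that make GABA, Gad2 was at 130.2 to 140.0 CPM in controls, 566 CPM in MRL/lpr replicate 3 and 429 CPM in MRL/lpr+MSC replicate 3, and Gad1 at 261 to 269.8, 597 and 502 CPM. Of 15 genes tested in MRL/lpr compared with MRL/mpj mice, 1 rose and 0 fell: Prdm16, a zinc-finger regulator, had a log2 fold change of 2.03 (SE 0.38, adjusted p = 0.029, limma voom). In MRL/lpr+MSC against MRL/mpj mice 0 of 14 passed by limma voom, with 2 at an unadjusted p under 0.05.

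Genes of cholinergic neurons, which in the forebrain lie in the striatum, the septum and the basal forebrain nuclei, were further from the controls. All 8 were highest in replicate 3 of an lpr group. The acetylcholinesterase gene Ache was at 56.1 to 74.9 CPM in controls, 98.6 CPM in MRL/lpr replicate 3 and 102 CPM in MRL/lpr+MSC replicate 3. The choline transporter gene Slc5a7 was at 0.129 to 0.436 CPM in controls, 1.85, 10.7 and 15.4 CPM in MRL/lpr and 0.311, 1.30 and 15.0 CPM in MRL/lpr+MSC libraries, and the neurotrophin receptor Ngfr at 0.946 to 1.80 CPM in controls and 14.6 and 15.7 CPM in replicate 3 of the lpr groups. Chat and the cholinergic transcription factors Lhx8 and Gbx1, named after their values were seen, had at most 2 counts in every control. Lhx8 had 14, 2 and 223 counts in MRL/lpr and 0, 2 and 221 counts in MRL/lpr+MSC libraries, so that replicate 3 of each group held nearly all of them. Of 5 genes tested in MRL/lpr and 2 tested in MRL/lpr+MSC mice, 0 passed by limma voom, with 4 and 0 at an unadjusted p under 0.05.

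Choroid plexus genes were highest in replicate 2 of both lpr groups, not in replicate 3. The sets of libraries overlapped, as Six3 was above the controls in replicate 2 of both lpr groups too. MRL/lpr replicate 1 was also above the controls, both for Six3 and for the summed plexus genes. Transthyretin (Ttr), secreted by the choroid plexus, was at 122, 445 and 624 CPM in MRL/mpj, 930, 8879 and 50.9 CPM in MRL/lpr and 67.2, 4426 and 447 CPM in MRL/lpr+MSC libraries, and the 12 genes of this list had a summed level of 174 to 728, 121 to 9949 and 107 to 5010 CPM in the 3 groups. MRL/lpr replicate 2 and MRL/lpr+MSC replicate 2 were thus high, which are also the libraries with the highest Ppp1r1b in each group. The plexus genes Kl and Clic6 were high in the same libraries, at 394 and 185 CPM in MRL/lpr replicate 2. None of the 12 passed the rule in any comparison by limma voom, with 1, 0 and 0 at an unadjusted p under 0.05.

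Summed levels of the hippocampal principal neuron genes were 1780, 2144 and 1487 CPM in MRL/lpr and 1648, 1943 and 1636 CPM in MRL/lpr+MSC libraries. MRL/lpr+MSC replicates 1 and 3, with the lowest and the highest Six3 of the series, were close to each other in this sum. The median log2 difference of the list from the controls was -0.30, 0.32 and -0.69 in MRL/lpr and -0.34, -0.36 and -0.59 in MRL/lpr+MSC libraries. By this measure replicate 3 was the lowest of each lpr group. Of 19 genes of principal neurons, 0 rose and 2 fell in MRL/lpr and 1 rose and 1 fell in MRL/lpr+MSC against MRL/mpj mice. The CA1 gene Fibcd1 fell in both, with log2 fold changes of -1.11 (SE 0.11, adjusted p = 0.0037, limma voom) and -0.79 (SE 0.10, adjusted p = 0.0088), and Spink8 fell in MRL/lpr mice with one of -0.74 (SE 0.12, adjusted p = 0.018). Calb2, which also marks other neurons, rose in MRL/lpr+MSC mice with a log2 fold change of 3.06 (SE 0.63, adjusted p = 0.047). Neurod6 was at 238 to 289 CPM in controls, 80.2 CPM in MRL/lpr replicate 3 and 129 CPM in MRL/lpr+MSC replicate 3, Zbtb20 at 498 to 575, 337 and 343 CPM, and Wfs1 at 194 to 298, 211 and 213 CPM. Of 13 interneuron genes 4 fell in MRL/lpr mice: Vip and Npy as given above, Pvalb with a log2 fold change of -0.98 (SE 0.09, adjusted p = 0.0034), and Cnr1, which the naming rule left out and which is named after its value was seen, with one of -0.65 (SE 0.10, adjusted p = 0.018). Fold changes in MRL/lpr mice were positive for 3 of the 13, with a median of -0.55. Gad1 and Gad2, high in replicate 3 of both lpr groups as given above, are also on this list. Its summed level was 1165 to 1335 CPM in controls, 1156, 895 and 1930 CPM in MRL/lpr and 1280, 1178 and 1682 CPM in MRL/lpr+MSC. In MRL/lpr+MSC mice 0 of 13 passed by limma voom, with 2 at an unadjusted p under 0.05.

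For the remaining lists the counts were small. Of thalamic and habenular genes 1 of 13 fell in MRL/lpr and 1 of 12 in MRL/lpr+MSC mice, Gpr151 in both. Fold changes were positive for 9 of 13 and 9 of 12, with medians of 0.29 and 0.42. Summed levels were 218 to 261 CPM in MRL/mpj, 351, 235 and 382 CPM in MRL/lpr and 176, 295 and 417 CPM in MRL/lpr+MSC libraries. The kinase gene Prkcd was at 61.2 to 94.6 CPM in controls and ran from 13.4 to 179 CPM in the lpr libraries, Rora was at 33.4 to 52.8 CPM and Ntng1 at 21.1 to 47.8 CPM over the 9 libraries. Of neocortical genes 2 of 13 fell in MRL/lpr mice, Fezf2 among them with a log2 fold change of -0.83 (SE 0.13, adjusted p = 0.0152, limma voom), while Tbr1 was at 39.5 to 72.6 CPM and Cux1 at 32.7 to 54.2 CPM over the 9 libraries. Of hypothalamic genes 0 of 4 and 0 of 2 passed, with 3 and 0 at an unadjusted p under 0.05. Among them the ventral forebrain factor Nkx2-1 was at 0.218 to 0.400 CPM in controls, 6.43 CPM in MRL/lpr replicate 3 and 9.07 CPM in MRL/lpr+MSC replicate 3, Pomc at 1.09 to 2.49 CPM and Gal at 0.258 to 3.64 CPM over the 9 libraries. Of myelin genes 0 of 10 passed in either comparison, with 1 and 4 at an unadjusted p under 0.05, and the summed level of the 10 genes, Mbp and Mobp among them, was 7929 to 8605 CPM in MRL/mpj, 5201 to 10173 CPM in MRL/lpr and 4442 to 7965 CPM in MRL/lpr+MSC libraries. Of genes of midbrain dopamine neurons, whose axons supply the striatum, 1 of 4 fell in MRL/lpr mice, Nr4a2 with a log2 fold change of -1.34 (SE 0.11, adjusted p = 0.0025, limma voom), while Slc18a2 was at 5.61 to 15.5 CPM and Ddc at 5.71 to 13.2 CPM over the 9 libraries. Fold changes in MRL/lpr mice were positive for 3 of these 4 midbrain genes, with a median of 0.64. The study lists Nr4a2 among immediate-early genes. None of the genes on any list passed in MRL/lpr+MSC against MRL/lpr mice, as for all 16758 genes.

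**Figure D5:**
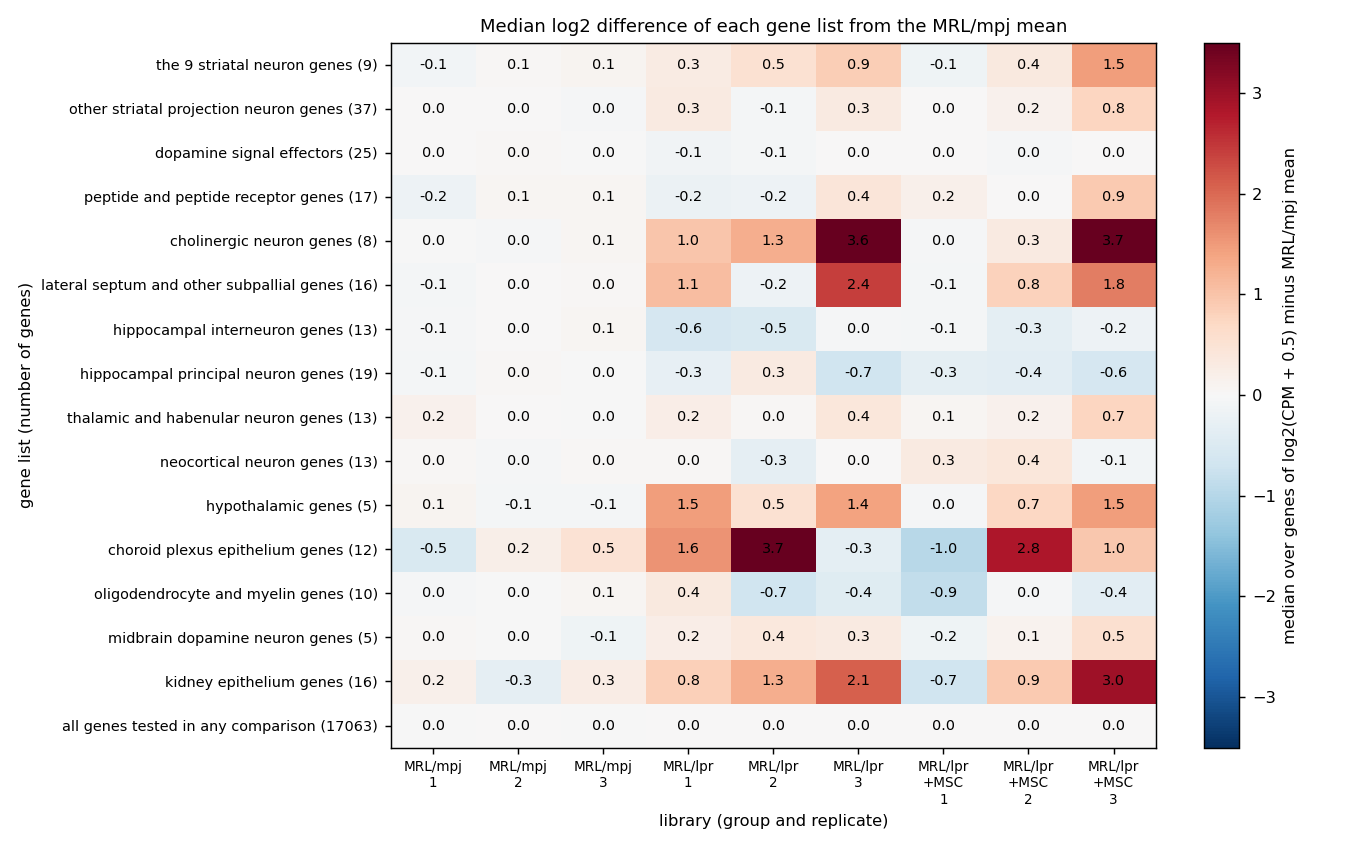
Median over the genes of each list (vertical axis, number of genes in brackets) of the difference of log2(CPM + 0.5) from the MRL/mpj mean, for each library (horizontal axis), with the value in each cell. The cholinergic list reaches 3.61 in MRL/lpr replicate 3 and 3.68 in MRL/lpr+MSC replicate 3, the choroid plexus list 3.68 in MRL/lpr replicate 2, and the 9 striatal neuron genes 1.46 in MRL/lpr+MSC replicate 3.

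Genes that varied most like the 9 were sought by the Pearson r over the 9 libraries between log2 CPM and the score given above. Among protein-coding genes that averaged 1 CPM or more, the 10 highest included Tubgcp3 (0.95), C9orf72 (0.94), Cltrn (0.94), Lrp2 (0.94), Mep1a (0.94), Slc22a18 (0.94), Poll (0.94), Umod (0.93) and Hist3h2ba (0.93). Some of them differed little in level, such as Tubgcp3, which ran from 37.8 to 48.4 CPM. Others ran over a wide range: Lrp2, an endocytic receptor of proximal tubules that choroid plexus also makes, was at 1.45, 1.68 and 2.78 CPM in MRL/mpj, 4.83, 6.08 and 16.6 CPM in MRL/lpr and 2.70, 4.83 and 34.0 CPM in MRL/lpr+MSC libraries. Umod, which encodes the urinary protein uromodulin, had 1, 0 and 22 counts in MRL/mpj, 25, 32 and 73 counts in MRL/lpr and 0, 21 and 198 counts in MRL/lpr+MSC libraries. Of the 10 genes, 9 were again among the 10 highest with median-of-ratios scaling and 8 with the authors' FPKM, but 4 to 8 without any 1 of the other libraries and only 1 without MRL/lpr+MSC replicate 3, so this order rests largely on that library.

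Because Umod, Lrp2, Cltrn and Mep1a are known from the kidney, 16 genes of kidney epithelium were then looked up, a list written after these values were seen and given without a test. Their summed level was 5.63 to 20.05 CPM in MRL/mpj, 27.6, 46.0 and 131 CPM in MRL/lpr and 4.46, 22.6 and 249 CPM in MRL/lpr+MSC libraries. All 16 were highest in MRL/lpr replicate 3 or MRL/lpr+MSC replicate 3. Kap, the androgen-regulated protein of the mouse kidney, had 74, 20 and 147 counts in MRL/mpj, 146, 310 and 1300 counts in MRL/lpr and 0, 44 and 2183 counts in MRL/lpr+MSC libraries. The sodium-phosphate transporter gene Slc34a1 had 6 to 18 counts in controls, 46 to 131 counts in MRL/lpr libraries and 0, 49 and 154 counts in MRL/lpr+MSC libraries. The libraries with the highest Six3, Penk and Tac1 were thus also those with the most kidney transcripts, and MRL/lpr+MSC replicate 1, the lowest for Six3, had 0 counts of Umod, Kap and Slc34a1. The part of these transcripts in the levels of the 9 genes was not tested.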

How the data were processed

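Hippocampal RNA of 9 mice (3 per group) was sequenced from poly(A)-selected libraries. The authors deposited raw read counts per gene and library, and FPKM tables that they calculated from counts and gene lengths. The study's methods name STAR, the mm10 genome and HTSeq, while the submitters' processing notes name TopHat2 and GRCm38. Whether counting used strand is not given in the sources used here. Of the 47643 gene identifiers, 47224 were matched to GENCODE symbols. The count table also holds 0 columns without a sample.

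Genes were kept where at least 3 libraries reached the equivalent of 10 counts and the total was at least 15, and libraries were scaled by TMM (30% of log ratios and 5% of levels trimmed). Groups were compared pairwise with limma voom (limma 3.58.1, R 4.3.3) and p-values adjusted by Benjamini-Hochberg over the whole table. A gene was called at an adjusted p under 0.05 and a change of at least 1.5-fold. A quasi-likelihood count test had been planned. It was not run, and limma voom, a listed alternative, took its place. Simulated counts took mean levels and library sizes from these comparisons, with the same fixed dispersion for every gene and no shifts of single libraries. Of 200 genes changed 3-fold, 194, 193 and 193 were recovered. The order is MRL/lpr against the controls, MRL/lpr+MSC against the controls, and both lpr groups against each other. The genes numbered 16492, 16012 and 16580, with 14, 7 and 7 others called. In the real libraries the SD of Six3 was 68.7% of its mean in MRL/lpr and 116% in MRL/lpr+MSC mice. The recovery therefore does not measure power for genes with such a spread. Totals of 19475804 to 26912031 counts set the floor of 3 counts per library.

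The 9 genes and the gene lists were chosen with earlier results of these data known. Named were all 9 genes, called genes and the 3 with the highest mean CPM of each list (up to 8 called for other striatal genes, up to 3 for each further list), and the 10 protein-coding genes most like the mean of the 9. The kidney list was added later. Differences from the controls were taken on log2(CPM + 0.5). P-values set the difference between the group means against the spread between mice within the groups. Alternatives were another scaling, other filters, a fit of all 9 libraries, a replicate block and leaving out each library. Some genes that the naming rule selects are not reported here.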

Additional observations from a re-analysis of the deposited data

How the results depend on the processing

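For the 24 calls of single genes on the lists, Rgs9 included, no fold change took the opposite sign under the alternatives, but the call was lost in 27 of 142 refits under other settings and in 71 of 141 with a library left out. With a library left out, 5 of the 24 were never lost: Fibcd1, Pvalb, Vip and Nr4a2 in MRL/lpr and Meis2 in MRL/lpr+MSC mice. Rgs9 lost its call in 2 of 6 other settings (adjusted p = 0.0991 with all 9 libraries and 0.0595 with the replicate block, limma voom) and in 3 of 6 refits without 1 library. The median log2 fold change of the 9 genes ran from 0.34 to 0.52 (MRL/lpr against MRL/mpj), from -0.0026 to 0.75 (MRL/lpr+MSC against MRL/mpj) and from -0.40 to 0.33 (MRL/lpr+MSC against MRL/lpr) when single libraries were left out. Genes called ran from 135 to 1483 and from 158 to 1346 for the first pair of comparisons when single libraries were left out, and 0 were called in the third under every setting. Other striatal genes called ran from 0 to 13 and from 1 to 6. Of the 10 genes most like the 9, 1 to 8 were kept. Without a filter on low counts 1 other striatal gene was called in MRL/lpr+MSC mice, and with all 9 libraries in 1 fit 0 were. Whether replicate numbers link the mice was not settled: deviations of same-numbered libraries correlated from -0.20 to 0.40, not all above 0.1. Between the lpr groups the correlation was -0.20 for replicate 1, 0.25 for replicate 2 and 0.40 for replicate 3. Crossing replicates 2 and 3 of these groups gave -0.42 and -0.44. With the replicate number as a block, 1127 genes were called in MRL/lpr and 283 in MRL/lpr+MSC mice, of which 7 and 1 were other striatal genes, and Six3 and Drd2 but not Rgs9 were called in MRL/lpr mice. The cause of these shifts was not tested. Further tests from the plan, a quasi-likelihood count test, a negative binomial test and the former with other size factors, were not run. With 3 mice per group, low genes such as Isl1 and Lhx8 in controls are limited by depth.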
